A study of Mus musculus with 6 samples.

Results

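Mouse embryonic stem cells that had received siRNA 2 against p/CIP were compared with cells of the same line that had received siRNA 1 against p/CIP. The comparison uses 4 of the 6 arrays of the series, 2 for each siRNA, and holds no control array. It covers 19938 genes, each a symbol that a row of the deposited table carries alone, with the brightest row standing for a gene that had several. All cells were of the E14 line, a feeder-independent line of mouse embryonic stem cells, and the labels name no agent besides the siRNA. The other 2 arrays came from E14 cells that received a pool of non-specific siRNAs, and here they add to the estimate of spread and show where control levels lay. The labels give neither the siRNA sequences nor the time after transfection, and they leave unsaid whether replicates were separate cultures; a p-value here therefore covers the spread among these arrays alone, which may be technical. The protocol text of the labels gives both reagents the same number, and the titles and source names tell them apart.

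p/CIP, the product of Ncoa3, is a p160 coactivator. Such proteins bind nuclear receptors once a ligand or an active conformation exposes the right surface, and they bring histone acetyltransferases and methyltransferases to the gene. In embryonic stem cells p160 coactivators work with the orphan receptors that hold the naive state. An siRNA is loaded into an Argonaute protein, which cuts transcripts that match it closely and can also lower transcripts that match only its seed, so a pair of siRNAs against 1 gene share the target and need not share the rest.

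The target transcript stood at about the same level with both siRNAs. Ncoa3 stood at 12.33 and 12.28 in control, at 10.71 and 10.93 with siRNA 1, and at 10.71 and 10.92 with siRNA 2. The siRNA arrays lay well below both controls and overlapped each other, and the log2 difference between the siRNAs was -0.00 (standard error 0.111, 95% interval -0.27 to 0.26, limma adjusted p = 0.995). The core factors of pluripotency also differed by little. Nanog stood at 13.05 and 12.89 in control, at 12.70 and 12.55 with siRNA 1, and at 12.71 and 12.60 with siRNA 2, and differed by 0.03 (95% interval -0.20 to 0.26). Pou5f1, which encodes OCT4, differed by 0.03 (-0.18 to 0.25) and Sox2 by 0.06 (-0.18 to 0.30). Among factors of the naive state, Klf4 differed by -0.05 (-0.35 to 0.26), the orphan receptor gene Esrrb by -0.02 (-0.27 to 0.22) and the T-box gene Tbx3 by -0.09 (-0.34 to 0.17). None of these 7 genes passed the test, at limma adjusted p from 0.832 to 0.995. The sign of Pou5f1, Sox2, Nanog, Klf4 and Esrrb turned when 1 siRNA array or another was left out.

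Array medians lay between 7.77 and 7.84 on the log2 scale. The second siRNA 1 array (replicate 2) was the one least like the others, with an interquartile range of 3.13 against 3.33 to 3.45 on the others. Over all genes the median absolute difference was 0.143 between the siRNA 1 arrays, 0.0953 between the siRNA 2 arrays, 0.082 between the siRNAs within replicate 1 and 0.129 within replicate 2. The typical gene thus differed about as much between replicates of 1 siRNA as between the siRNAs. The markers of the labelled cell type were bright: 37 of 38 genes of core and naive pluripotency lay above the median gene level of 7.81, with array means of the list from 11.2 to 11.6, while 5 of 15 fibroblast feeder markers did, with array means from 6.89 to 7.05.

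No gene passed the test between the siRNAs without a replicate block. limma called 0 of 19938 genes (0%) at an adjusted p under 0.05, with 670 higher and 706 lower with siRNA 2 at an unadjusted p under 0.05. The smallest adjusted p was 0.0851 for a gene higher with siRNA 2 and 0.208 for a gene lower with it. An unmoderated linear model also called 0, while limma with its trend and robust options called 22 higher and 1 lower. With the replicate number of the titles as a block, so that arrays of equal number are set against each other, limma called 14 genes higher (0.0702%) and 1 lower (0.00502%) with siRNA 2. What a replicate number stands for is not in the labels, so the block rests on the data. All 15 were lost when the 4 siRNA arrays were fitted alone, when either control array or either siRNA 2 array was left out, when all 35556 rows were tested, or without moderation, and 3 of the 15 were called without siRNA 1 replicate 2. Without siRNA 1 replicate 1 the block called 241 higher and 253 lower, all 15 among them. The 15 genes are given with both adjusted p-values, the second of them marked as with the block.

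The largest differences pointed to one side. Of the 19938 genes 7 were over 1 log2 unit higher with siRNA 2 and 0 were over 1 log2 unit lower. The 7 were Acta2, Krt19, Thbs1, Arpc5, Cnn1, Myd88 and the predicted gene Gm5662, which the rule for naming genes passes over and which was chosen after its values were seen. Gm5662 stood at 8.81 and 8.63 in control, at 7.11 and 5.95 with siRNA 1, and at 8.04 and 7.87 with siRNA 2, with siRNA 1 replicate 2 far below the other siRNA 1 array. For small differences the balance ran the other way: the median difference over all genes was -0.03, with 8354 genes higher and 11583 lower with siRNA 2. Both siRNA 2 arrays were above both siRNA 1 arrays for 3022 genes (15.2%) and below them for 3982 (20%).

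The small differences followed the level of the gene, more widely within replicate 2 than within replicate 1. With the genes split by level into 5 equal groups, the median difference was -0.07 in the dimmest group and -0.09 in the next, while in the brightest 2 groups it was 0.02 and 0.03. In the dimmest group 962 genes lay lower without overlap and 284 higher. In the brightest group 547 lay lower and 1001 higher. After quantile normalization the 5 medians lay between -0.02 and -0.00, and without siRNA 1 replicate 2 they lay between -0.01 and 0.01. Within replicate 1 the medians from dimmest to brightest were -0.02, -0.04, -0.03, -0.00 and 0.01. Within replicate 2 they were -0.11, -0.14, -0.04, 0.05 and 0.04. Counts of genes without overlap in a list are to be read against these shares of 15.2% and 20%.

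**Figure D1:**
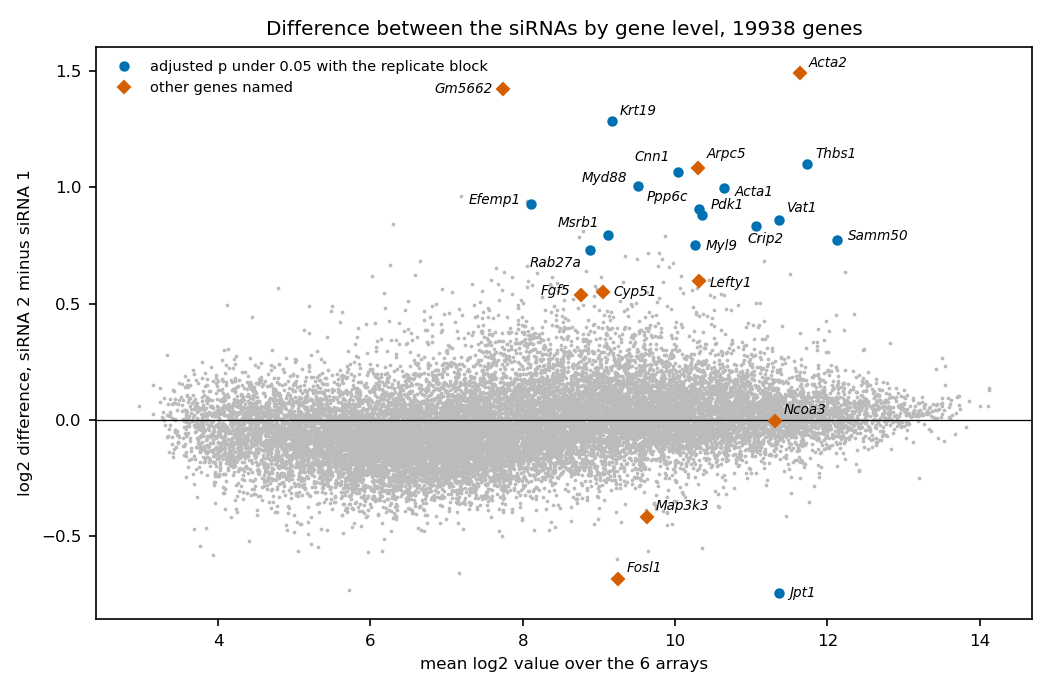
Log2 difference, siRNA 2 minus siRNA 1, against the mean log2 value over the 6 arrays for each of 19938 genes (grey points); circles are the 15 genes with an adjusted p under 0.05 with the replicate block, diamonds other genes named. The points over 1 log2 unit all lie above 0, Ncoa3 lies at -0.00, and Jpt1 (-0.74) and Fosl1 (-0.68) are the lowest of the genes marked.

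The 12 genes that the naming rule took as nearest to passing on the upper side were all low with siRNA 1 and near control with siRNA 2. Myd88, the adaptor of Toll-like and interleukin receptors, stood at 9.73 and 9.77 in control, at 8.86 and 8.91 with siRNA 1, and at 9.87 and 9.90 with siRNA 2. The siRNA 1 arrays lay below the other 4, and the difference between the siRNAs was 1.00 (2.01-fold, standard error 0.0766, limma adjusted p = 0.0851, and 0.0395 with the block). Arpc5, a subunit of the complex that starts branched actin filaments, stood at 10.60 and 10.58 in control, at 9.72 and 9.52 with siRNA 1, and at 10.62 and 10.79 with siRNA 2. It was 2.12-fold higher with siRNA 2 (1.08, standard error 0.104, limma adjusted p = 0.146, and 0.0504 with the block), and with limma's trend and robust options it passed (adjusted p = 0.00865). Crip2, a LIM-domain protein, stood at 11.29 and 11.40 in control, at 10.55 and 10.46 with siRNA 1, and at 11.35 and 11.33 with siRNA 2. Again only the siRNA 1 arrays stood off, by 0.83 between the siRNAs (limma adjusted p = 0.146, and 0.0479 with the block).

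Samm50, part of the machinery that inserts proteins into the outer mitochondrial membrane, stood at 12.43 and 12.37 in control, at 11.57 and 11.66 with siRNA 1, and at 12.39 and 12.38 with siRNA 2, a difference of 0.77 between the siRNAs (limma adjusted p = 0.146, and 0.0479 with the block). Ppp6c, the catalytic part of a protein phosphatase, stood at 10.71 and 10.71 in control, at 9.79 and 9.53 with siRNA 1, and at 10.62 and 10.52 with siRNA 2, a difference of 0.91 (limma adjusted p = 0.208, and 0.0479 with the block). For both genes the siRNA 2 arrays lay within 0.14 of the control mean on average. Msrb1, a methionine sulfoxide reductase, stood at 9.28 and 9.39 in control, at 8.53 and 8.69 with siRNA 1, and at 9.35 and 9.45 with siRNA 2, and Vat1, a vesicle membrane protein, stood at 11.83 and 11.58 in control, at 10.82 and 10.71 with siRNA 1, and at 11.68 and 11.57 with siRNA 2. Their differences were 0.79 and 0.86, each with limma adjusted p = 0.208, and 0.0479 with the block. Another 5 passed neither with nor without the block under limma's default options, and passed without the block under its trend and robust options (adjusted p from 0.0294 to 0.0443): the calcium-binding protein gene Pef1 (0.66), Commd10 (0.79), the ubiquitin-conjugating enzyme gene Ube2q2 (0.62, and 0.64 on a second row), the mRNA decapping enzyme gene Dcp2 (0.69) and Magt1, which encodes a magnesium transporter (0.81). Across the 12, siRNA 1 differed from control by -1.05 to -0.59 and siRNA 2 by -0.14 to 0.14. The siRNA 1 arrays were below both controls for 12 of 12. The control mean was nearer to siRNA 2 for all 12, as it was for 66.2% of all genes. These contrasts share the control arrays, and the 12 were chosen by the difference between the siRNAs, so this order describes them and is not a test.

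The 12 genes nearest to passing on the lower side were more mixed. Jpt1, a microtubule-associated protein of dividing cells, stood at 11.65 and 11.56 in control, at 11.65 and 11.57 with siRNA 1, and at 10.95 and 10.78 with siRNA 2. Here siRNA 2 was the one that stood off, 1.68-fold lower than with siRNA 1 (log2 difference -0.74, standard error 0.0924, limma adjusted p = 0.208, and 0.0479 with the block). Fosl1, which encodes the AP-1 member FRA1, stood at 8.86 and 9.11 in control, at 9.70 and 9.75 with siRNA 1, and at 9.03 and 9.06 with siRNA 2. The siRNA 1 arrays lay above all others, and siRNA 2 was -0.68 lower (standard error 0.101, limma adjusted p = 0.296, and 0.0771 with the block).

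Genes that resembled Fosl1, high with siRNA 1 and near control with siRNA 2, were the prostaglandin E synthase gene Ptges and Trafd1, a zinc finger protein of innate immune signalling. Ptges stood at 8.88 and 8.86 in control, at 9.20 and 9.19 with siRNA 1, and at 8.74 and 8.76 with siRNA 2. Trafd1 stood at 9.75 and 9.79 in control, at 10.13 and 10.17 with siRNA 1, and at 9.74 and 9.76 with siRNA 2. Their differences between the siRNAs were -0.45 and -0.40. Map3k3, a kinase upstream of MAP kinases, resembled Jpt1 and stood at 9.79 and 9.79 in control, at 9.81 and 9.72 with siRNA 1, and at 9.31 and 9.38 with siRNA 2. The sialyltransferase gene St3gal3 lay between them, above control with siRNA 1 (0.25) and below it with siRNA 2 (-0.20). The same holds, with smaller values on the siRNA 1 side, for the SOCS-box gene Wsb2 (0.12 and -0.29), Klhl42 (0.07 and -0.38), the sulfiredoxin gene Srxn1 (0.09 and -0.30), the integrin gene Itga8 (0.18 and -0.25), the ETS factor gene Elk3 (0.10 and -0.30) and the spermine oxidase gene Smox (0.18 and -0.25). In all, the siRNA 1 arrays lay above both controls for 9 of the 12 and the siRNA 2 arrays below both for 10. limma adjusted p ran from 0.208 to 0.424, and Jpt1 was the only one of these 12 to pass with the block.

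**Figure D2:**
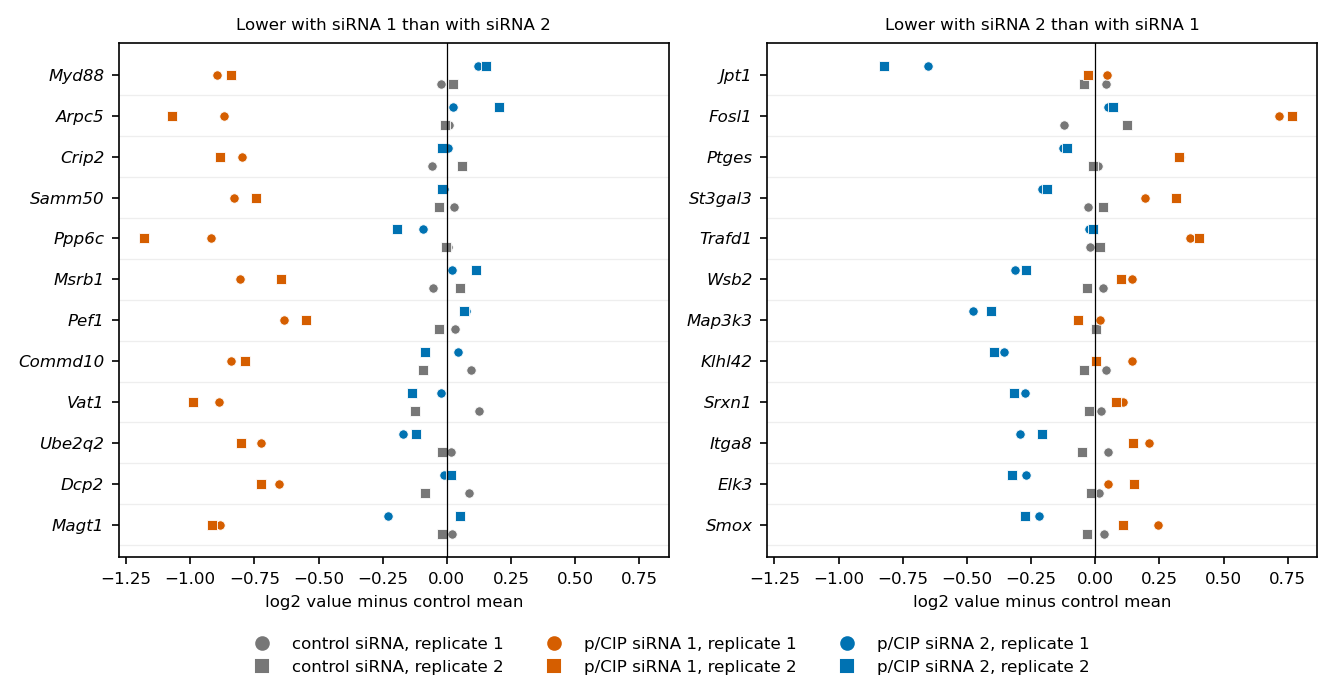
Log2 value minus the mean of the control arrays on each of the 6 arrays, for the 12 genes nearest to passing in each direction; colour gives the siRNA and shape the replicate. On the left all siRNA 1 arrays sit below all control and siRNA 2 arrays of the same gene, with siRNA 1 at -1.05 to -0.59 on average; on the right the shift is with siRNA 2 for Jpt1, with siRNA 1 for Fosl1, and shared for others.

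Several actin and contractile genes held wide differences and a wide spread between replicates. Acta2, which encodes smooth muscle actin, stood at 11.75 and 12.16 in control, at 10.23 and 11.25 with siRNA 1, and at 11.92 and 12.54 with siRNA 2. It was 2.81-fold higher with siRNA 2 (1.49, standard error 0.351, limma adjusted p = 0.481, and 0.0601 with the block). The groups did not overlap, yet the siRNA 1 arrays differed from each other by over 1 log2 unit, and the difference was 2.00 without siRNA 1 replicate 2. Cnn1, which encodes calponin, stood at 9.90 and 10.33 in control, at 9.24 and 9.71 with siRNA 1, and at 10.24 and 10.85 with siRNA 2 (1.07, limma adjusted p = 0.481, and 0.0451 with the block). Acta1, the skeletal actin gene, stood at 10.58 and 10.99 in control, at 9.83 and 10.32 with siRNA 1, and at 10.73 and 11.42 with siRNA 2 (1.00, limma adjusted p = 0.566, and 0.0479 with the block). Myl9, a myosin light chain gene, stood at 10.12 and 10.66 in control, at 9.60 and 10.04 with siRNA 1, and at 10.31 and 10.83 with siRNA 2 (0.75, limma adjusted p = 0.685, and 0.0479 with the block). Acta1 and Myl9 were chosen after their values were seen. In each of these genes, as in the cardiac actin gene Actc1 (0.70), replicate 2 lay above replicate 1 in all 3 groups, and within either replicate the order was siRNA 1 below control and siRNA 2 above siRNA 1.

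Of the 29 contractile genes measured, 20 were higher and 9 lower with siRNA 2, with a median difference of 0.23 beside -0.03 over all genes. Both siRNA 2 arrays were above both siRNA 1 arrays for 8 of them, 27.6% beside 15.2% of all genes, and below for 0, beside 20%. With the block 3 were called, Cnn1, Acta1 and Myl9, and without it 0. Tagln, which encodes transgelin, was at 0.50 (standard error 0.256), Cald1, the caldesmon gene, at 0.37, Tpm1, a tropomyosin, at 0.24, and Flna, the actin cross-linker filamin, at 0.23. The smooth muscle myosin gene Myh11 (-0.10), the coactivator gene Myocd (-0.08) and the regulators Srf (-0.01), Mrtfa (-0.04) and Mrtfb (-0.03), which drive actin genes, lay near 0. Other regulators did not: Ankrd1, a muscle ankyrin repeat protein of the nucleus and sarcomere, was at 0.60 (standard error 0.313) and Tgfb1i1, a LIM-domain coactivator and adhesion protein, at 0.44 (0.342). The list's median ran from 0.08 to 0.37 over the alternatives. Replicate 2 was above replicate 1 in all 3 groups for 27 of the 29, beside 5676 of the 19938 genes. In a bulk sample fewer cells of a contractile type and less of these transcripts per cell cannot be told apart.

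Promoters of 3 actin and myosin genes with wide differences are shown because they carry a CArG box, the element that serum response factor binds. In the RefSeq windows of GRCm38.p6, from 250 bases before to 50 after the start of transcription and on both strands, 6 of the 24 contractile genes with an entry held one (Acta1, Actc1, Cnn2, Myl9, Srf and Vcl), beside 1.81% of all 27025 genes with an entry. Acta2 and Cnn1 held none in this window, which says nothing of the rest of their regulatory sequence. The 250 bases before the start follow, with the CArG box in capitals, 73, 161 and 47 bases before the start.
Acta1, chr8:123894776-123895025, minus strand: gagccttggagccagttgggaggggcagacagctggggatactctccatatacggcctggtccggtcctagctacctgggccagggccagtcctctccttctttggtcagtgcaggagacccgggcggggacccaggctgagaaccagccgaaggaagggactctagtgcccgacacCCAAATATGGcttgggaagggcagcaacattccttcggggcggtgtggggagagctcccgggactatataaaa
Myl9, chr2:156775214-156775463, plus strand: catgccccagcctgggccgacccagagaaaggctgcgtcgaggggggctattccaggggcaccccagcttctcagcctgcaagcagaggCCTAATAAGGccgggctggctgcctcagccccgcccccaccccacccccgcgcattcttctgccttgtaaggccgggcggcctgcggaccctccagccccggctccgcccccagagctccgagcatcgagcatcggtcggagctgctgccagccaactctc
Actc1, chr2:114052876-114053125, minus strand: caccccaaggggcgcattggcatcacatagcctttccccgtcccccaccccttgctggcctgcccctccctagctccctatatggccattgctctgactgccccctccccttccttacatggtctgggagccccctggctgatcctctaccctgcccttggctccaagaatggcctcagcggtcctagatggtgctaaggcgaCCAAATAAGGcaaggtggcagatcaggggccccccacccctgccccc

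A match describes the letters of the window only. Srf has such a box and differed by -0.01 between the siRNAs, while Acta2 lacks one there and differed by 1.49.

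Krt19, Thbs1 and Efemp1 went the same way on the same arrays. Some other adhesion and matrix genes were also higher with siRNA 2, while others and the other keratin genes listed were not clearly so. Krt19, a keratin of simple epithelia, stood at 9.26 and 9.50 in control, at 8.27 and 8.57 with siRNA 1, and at 9.48 and 9.92 with siRNA 2. It was 2.44-fold higher with siRNA 2 (1.29, standard error 0.174, limma adjusted p = 0.222, and 0.0395 with the block). Thbs1, the matrix glycoprotein thrombospondin, stood at 11.65 and 11.996 in control, at 10.85 and 11.42 with siRNA 1, and at 11.98 and 12.49 with siRNA 2 (1.10, limma adjusted p = 0.446, and 0.0451 with the block). Efemp1, an extracellular fibulin named after its values were seen, stood at 8.14 and 8.498 in control, at 7.44 and 7.65 with siRNA 1, and at 8.28 and 8.67 with siRNA 2 (0.93, limma adjusted p = 0.378, and 0.0479 with the block). In all 3 genes the siRNA 1 arrays were the lowest of the 6 and replicate 2 was above replicate 1 in every group. Of 37 genes of adhesion and matrix 24 were higher and 13 lower with siRNA 2, 11 and 4 of them without overlap, with a median of 0.06. With the block 2 were called, Krt19 and Thbs1. The keratin genes Krt8 (0.06) and Krt18 (-0.04) lay near 0 with overlap, and the laminin gene Lama1 (-0.31, standard error 0.463) and the collagen genes Col4a1 (-0.19) and Col4a2 (-0.21) were lower with overlap. The integrin gene Itgb1, next after Krt19 and Thbs1 in the list by p, was at 0.31 (standard error 0.0979, limma adjusted p = 0.675). Timp3 was at 0.72 (standard error 0.247, limma adjusted p = 0.695, and 0.0728 with the block). Itga1 (0.29) and Fn1 (0.19) were higher too, and all of these were without overlap. The list's median turned negative without siRNA 1 replicate 1 or without siRNA 2 replicate 2, and replicate 2 was above replicate 1 in all 3 groups for 26 of the 37.

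**Figure D3:**
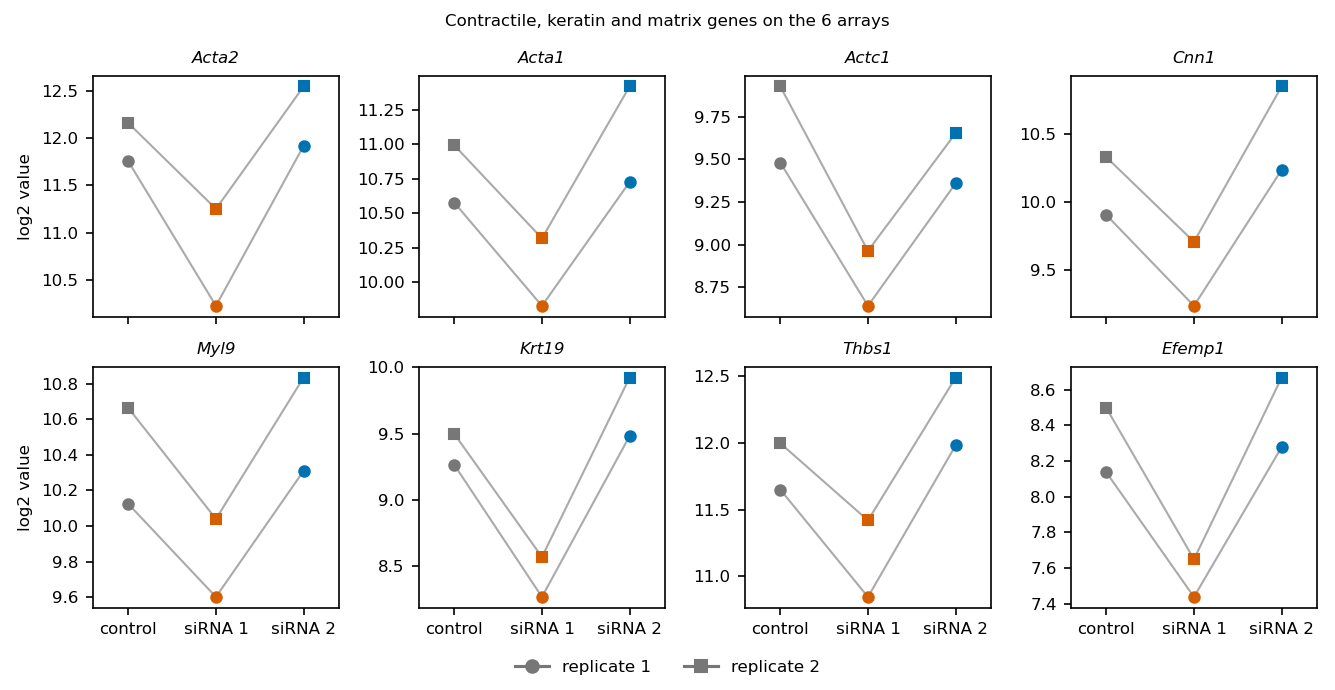
Log2 values of 8 contractile, keratin and matrix genes on the 6 arrays; each line joins the control, siRNA 1 and siRNA 2 arrays of 1 replicate number (circles replicate 1, squares replicate 2), and each panel has its own log2 axis. In every panel siRNA 1 is the lowest point of both lines and the replicate 2 line lies above the replicate 1 line.

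Genes of cholesterol and fatty acid synthesis were mostly higher with siRNA 2, by small amounts. Of the 26 measured 23 were higher and 3 lower, with a median of 0.21 beside -0.03 over all genes, and 17 were higher without overlap (65.4% beside 15.2% of all genes) and 0 lower. No member was called, with or without the block, under limma's default options, and 1, Scd1, was called without the block under its trend and robust options (adjusted p = 0.0443). Cyp51, which removes the methyl group from lanosterol, stood at 8.97 and 8.94 in control, at 8.85 and 8.80 with siRNA 1, and at 9.45 and 9.29 with siRNA 2. Here the controls lay between the siRNAs, nearer to siRNA 1, and the difference was 0.55 (standard error 0.0878, limma adjusted p = 0.325, and 0.0825 with the block). Scd1, a desaturase that makes monounsaturated fatty acids, stood at 11.18 and 11.20 in control, at 10.87 and 10.80 with siRNA 1, and at 11.40 and 11.28 with siRNA 2 (0.50, standard error 0.0834, limma adjusted p = 0.332). Hmgcs1, which makes the precursor of mevalonate, stood at 11.07 and 10.99 in control, at 10.65 and 10.72 with siRNA 1, and at 11.10 and 11.08 with siRNA 2 (0.40, standard error 0.0796, limma adjusted p = 0.413). For both of these the siRNA 1 arrays lay below both controls and the siRNA 2 arrays above them.

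Values varied from gene to gene along the pathway. Among the sterol steps Msmo1 (0.38), Hsd17b7 (0.31), Lss (0.26) and Sqle (0.25) were higher with siRNA 2, while Fdft1 was at 0.10 and Tm7sf2 at -0.01. Among the earlier isoprenoid steps Idi1 was at 0.32, Mvk at 0.04, Pmvk at -0.03 and Fdps at 0.07. Insig1, a sterol-controlled inhibitor of the pathway, was at 0.23, the fatty acid synthase gene Fasn at -0.04, and the regulators Srebf1 and Srebf2 at 0.07 and 0.07. The list's median was -0.10 for siRNA 1 against control and 0.07 for siRNA 2, contrasts that share the control arrays. It ran from 0.16 to 0.24 over the alternatives and was 0.20 without siRNA 1 replicate 2. Replicate 2 was above replicate 1 in all 3 groups for 6 of the 26, so these genes did not share the replicate order of the contractile genes. The promoter of Hmgcs1 is shown because it was the 1 member of 20 with an entry to hold the sterol regulatory element TCACNCCAC (both strands searched), a site for sterol-controlled factors held by 1.44% of all genes with an entry. The element is in capitals, 137 bases before the start.
Hmgcs1, chr13:119690101-119690350, plus strand: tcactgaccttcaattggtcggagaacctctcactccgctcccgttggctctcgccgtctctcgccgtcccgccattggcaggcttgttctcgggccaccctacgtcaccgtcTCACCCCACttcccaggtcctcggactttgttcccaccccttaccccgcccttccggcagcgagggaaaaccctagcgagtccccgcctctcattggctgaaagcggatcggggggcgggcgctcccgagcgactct

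No such letters in the other 19 windows says nothing of whether those factors act on them.

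**Figure D4:**
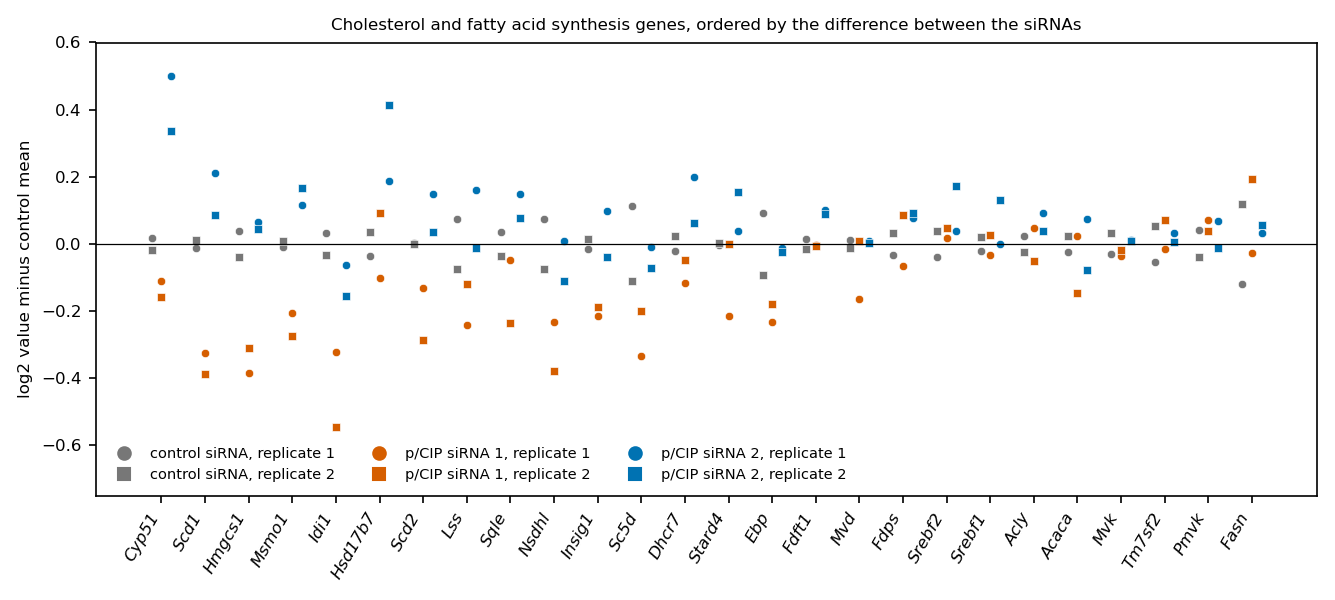
Log2 value minus the control mean on each of the 6 arrays for the 26 measured genes of cholesterol and fatty acid synthesis, from the largest difference between the siRNAs on the left to the smallest on the right; colour gives the siRNA and shape the replicate. From Cyp51 (0.55) to Fasn (-0.04), the siRNA 2 arrays lie above the siRNA 1 arrays without overlap for 17 genes.

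Among genes of hypoxia and glycolysis 23 of 28 were higher with siRNA 2, with a median of 0.06, and 8 were higher and 1 lower without overlap. Pdk1, a kinase that inhibits pyruvate dehydrogenase, stood at 10.59 and 10.49 in control, at 9.98 and 9.67 with siRNA 1, and at 10.84 and 10.57 with siRNA 2. The siRNA 1 arrays were the lowest, and the difference was 0.88 (1.84-fold, standard error 0.137, limma adjusted p = 0.31, and 0.0479 with the block), the 1 member called with the block. Pkm, the pyruvate kinase gene, was 0.33 higher (standard error 0.0774, 0.40 on a second row) and the glucose transporter gene Slc2a1 0.23 higher. Other members were mixed, and none passed with or without the block. Vegfa (-0.04), Car9 (-0.06) and Ldha (0.04) lay near 0, while the mitophagy gene Bnip3 was at 0.42 (standard error 0.238), the prolyl hydroxylase gene Egln3 at 0.40 (0.367, and 0.07 as the difference without siRNA 1 replicate 2) and Pfkfb3, which sets the pace of glycolysis, at 0.31 (0.151). Rab27a, a GTPase of secretory vesicles and the last of the 15 genes called with the block, was named after its values were seen. Rab27a stood at 9.25 and 9.02 in control, at 8.46 and 8.31 with siRNA 1, and at 9.22 and 9.01 with siRNA 2, with only siRNA 1 set apart, by 0.73 between the siRNAs (limma adjusted p = 0.326, and 0.0479 with the block).

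Double-stranded RNA is known to set off interferon-type responses, and siRNAs work through Argonaute proteins, so genes of both were listed. Of 35 genes of interferon response and RNA sensing 21 were higher and 14 lower with siRNA 2, 12 and 6 without overlap (34.3% and 17.1%, beside 15.2% and 20% of all genes). Their median of 0.03 turned negative without siRNA 1 replicate 1. The interferon gene Ifnb1 (-0.24) and Irf7 (-0.19) were among the 6 lower without overlap. Apart from Myd88, members of smallest p were Oasl2, an interferon-induced relative of the oligoadenylate synthetases, and Eif2ak2, which encodes the RNA-activated kinase PKR. Oasl2 stood at 7.79 and 7.72 in control, at 8.02 and 7.92 with siRNA 1, and at 8.39 and 8.28 with siRNA 2 (0.37, standard error 0.0858, limma adjusted p = 0.481), above control on all siRNA arrays and most with siRNA 2. Eif2ak2 stood at 8.15 and 8.03 in control, at 7.89 and 7.81 with siRNA 1, and at 8.25 and 8.11 with siRNA 2 (0.33, limma adjusted p = 0.574), with the siRNA 1 arrays the lowest. Of 23 genes of the RNA interference machinery 14 were higher and 9 lower, 4 and 5 without overlap, with a median of 0.03 that turned negative after quantile normalization, after cyclic loess and without siRNA 1 replicate 2. The Argonaute genes Ago4 and Ago1 differed by -0.31 and 0.24, and Dicer1 by 0.20, at limma adjusted p of 0.672 to 0.718. No member of the second list was called, with or without the block.

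Pluripotency genes were balanced between the siRNAs. Of 38 core and naive genes 24 were higher and 14 lower with siRNA 2, 3 and 5 without overlap, and the median of 0.03 changed sign in 4 alternatives. The members of smallest p were Lefty1, Spry4 and Gbx2. Lefty1, a secreted inhibitor of Nodal, stood at 9.99 and 9.96 in control, at 10.31 and 10.07 with siRNA 1, and at 10.90 and 10.68 with siRNA 2 (0.60, standard error 0.115, limma adjusted p = 0.411). Both siRNA 2 arrays were the highest of the 6. Its neighbour in function Lefty2 stood at 8.60 and 8.48 in control, at 8.73 and 8.15 with siRNA 1, and at 9.45 and 9.002 with siRNA 2 (0.79, standard error 0.213, limma adjusted p = 0.573, and 0.50 as the difference without siRNA 1 replicate 2). Spry4, a feedback inhibitor of FGF signalling, was at -0.31 and the homeobox gene Gbx2 at -0.23, both with siRNA 2 the lower. In the activin, Nodal and BMP list of 36 genes, 17 were higher and 19 lower, 11 and 7 without overlap, with a median of -0.02 that changed sign in 6 alternatives. The activin receptor-like kinase gene Tgfbr1 was at 0.30 (standard error 0.0922).

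Markers of the primed epiblast were higher with siRNA 2 for a few members. Fgf5, the growth factor that marks this state, stood at 8.30 and 8.35 in control, at 8.78 and 8.66 with siRNA 1, and at 9.24 and 9.28 with siRNA 2. The arrays lay in the order control, siRNA 1 and siRNA 2 without overlap, and the siRNAs differed by 0.54 (1.45-fold, standard error 0.0835, limma adjusted p = 0.31, and 0.113 with the block). Otx2, a homeobox factor of the epiblast and forebrain, stood at 10.00 and 10.03 in control, at 10.20 and 10.01 with siRNA 1, and at 10.68 and 10.50 with siRNA 2 (0.48, standard error 0.102, limma adjusted p = 0.424), with siRNA 1 near control. The zinc finger gene Zic5 was 0.36 higher with siRNA 2 on its brightest row and 0.05 on a second. Over the 21 markers measured 11 were higher and 10 lower, 7 and 2 without overlap (33.3% and 9.52%, beside 15.2% and 20% of all genes), and the median was 0.01.

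Markers of trophoblast and of the primitive streak were mostly lower with siRNA 2, by little. Both lists hold Cdx2, Hand1 and Eomes, so their counts are not separate. Of 19 trophoblast markers 14 were lower, 7 of them without overlap (36.8% beside 20% of all genes), and 5 higher, with a median of -0.07 that stayed negative in the alternatives run. Gata2, a zinc finger factor of trophoblast and blood, stood at 8.49 and 8.42 in control, at 8.55 and 8.72 with siRNA 1, and at 8.03 and 8.32 with siRNA 2 (-0.46, standard error 0.117, limma adjusted p = 0.554). Hand1, needed for trophoblast giant cells, stood at 9.17 and 9.27 in control, at 9.46 and 9.63 with siRNA 1, and at 8.98 and 9.24 with siRNA 2 (-0.44, limma adjusted p = 0.557). The siRNA 1 arrays were above both controls for these genes, and Esx1, a homeobox gene of the placenta, was at -0.39. Of 25 streak and mesoderm markers 19 were lower, 6 without overlap (24% beside 20% of all genes), with a median of -0.08. Among them were the caudal gene Cdx2 (-0.47, standard error 0.141, limma adjusted p = 0.633) and Msgn1 (-0.19). The median level of this list was 7.67, in the middle of the 5 level groups. The genes of that group leaned downward as a whole, with a median of -0.04, and those of the next dimmer group with -0.09. Without siRNA 1 replicate 2 the streak median was -0.00, Cdx2 was at -0.29 and Msgn1 at -0.09. Array means of the trophoblast list were 9.33 and 9.41 with siRNA 1 and 9.15 and 9.30 with siRNA 2, beside 9.20 and 9.27 in control.

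Extraembryonic endoderm markers did not keep their direction. Of 23 measured 18 were lower and 5 higher with siRNA 2, 2 and 0 without overlap, and the median of -0.09 turned positive without siRNA 1 replicate 2 or without siRNA 2 replicate 1. The forkhead gene Foxa2, with the smallest p of the list, stood at 7.69 and 7.89 in control, at 7.84 and 8.36 with siRNA 1, and at 7.88 and 7.82 with siRNA 2, so that its difference of -0.25 (standard error 0.169) rested on siRNA 1 replicate 2 and was 0.01 without it. Sox7 was at -0.19, and the endocytic receptor gene Lrp2 at 0.45 (standard error 0.308). Replicate 2 was above replicate 1 in all 3 groups for 17 of the 23. Of 18 neural markers 8 were higher and 10 lower, led by Nes (0.30), which encodes nestin, Fabp7 (0.20) and Msx1 (-0.20), with a median of -0.03. Of 15 fibroblast feeder markers 7 were higher and 8 lower, with a median of -0.01. The proteoglycan gene Dcn stood at 5.90 and 5.87 in control, at 5.72 and 5.78 with siRNA 1, and at 6.18 and 6.16 with siRNA 2, all below the median gene level, and Col3a1 was at -0.27.

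Genes of the 2-cell-like state, a rare state of stem cell cultures that uses transcripts of the early embryo, were higher with siRNA 2 for 11 of 12 members, 4 without overlap, with a median of 0.14. This list holds Gm5662. Of its 20 entries 12 were measured, and Zscan4a to Zscan4f, Tcstv1 and Tdpoz4 were not among them. Zfp42 and Dppa2 belong to the list of core and naive pluripotency as well. Usp17lc, a deubiquitinase gene of a multigene family, stood at 8.76 and 8.59 in control, at 8.503 and 8.04 with siRNA 1, and at 8.73 and 8.58 with siRNA 2 (0.38, standard error 0.158), and the difference was 0.15 without siRNA 1 replicate 2. Zfp352 was at 0.23 and Tmem92 at 0.18. Near-identical copies in this family can share probes, so single members are uncertain. Among 23 germline and meiosis genes 10 were higher and 13 lower, with Sycp3, a component of meiotic chromosome axes, at 0.94 (standard error 0.324, limma adjusted p = 0.695, and 0.52 as the difference without siRNA 1 replicate 2). Syce1 was at -0.19 and Nanos3 at -0.18, and the list's median was -0.01.

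Signalling lists differed by little. In the LIF and STAT3 list, the pathway that keeps mouse stem cells naive, 13 of 20 were lower with siRNA 2, 8 without overlap (40% beside 20% of all genes), with a median of -0.06. Socs3, the feedback inhibitor that STAT3 induces, stood at 9.68 and 9.59 in control, at 9.56 and 9.55 with siRNA 1, and at 9.34 and 9.28 with siRNA 2 (-0.25, standard error 0.0799, limma adjusted p = 0.678, and -0.10 on a second row), and the kinase gene Pim3 was at -0.21. In both genes the siRNA 2 arrays were lower than both siRNA 1 arrays. Gbx2 (-0.23), given above, is in this list as well and was lower in the same way. Of 33 immediate early and ERK feedback genes 21 were lower, 9 without overlap, with a median of -0.03, and the members of smallest p were Fosl1, Spry4 and the AP-1 gene Fosb (-0.29, standard error 0.0961). Of 40 WNT pathway genes 17 were higher and 23 lower, with Wls, needed to secrete WNT proteins, at 0.40, the receptor gene Fzd7 at 0.24 and Wnt7b at -0.26, and a median of -0.02.

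Growth and chromatin genes are bright, and bright genes as a whole leaned upward with siRNA 2. Of 37 cell cycle and replication genes 24 were higher, 15 without overlap (40.5% beside 15.2% of all genes), and 13 lower, with a median of 0.03 that was -0.00 after quantile normalization. The median level of these genes was 11.6, and in the brightest group 1001 of 3988 genes were higher without overlap, with the same median of 0.03. Cdkn1b, the inhibitor p27, was 0.36 higher (standard error 0.114, 0.17 on a second row), the cyclin gene Ccne2 0.35 and the helicase subunit gene Mcm4 0.17. Without siRNA 1 replicate 2 Cdkn1b was at 0.21 and Ccne2 at 0.15. Of 35 genes of histone modification and chromatin 27 were higher, 12 without overlap (34.3%), and 8 lower, with a median of 0.07 that stayed positive in the alternatives run and was 0.02 without siRNA 1 replicate 2. Suz12, a subunit of Polycomb repressive complex, stood at 12.06 and 11.92 in control, at 11.74 and 11.53 with siRNA 1, and at 11.97 and 11.95 with siRNA 2 (0.32, standard error 0.101, limma adjusted p = 0.674), while the demethylase genes Kdm6b and Kdm5b were both at 0.15. Of 22 cytosolic ribosomal protein genes 19 were higher, 2 without overlap, with a median of 0.04 beside 0.03 for the brightest group of genes. Rpl14 was at 0.22, Rpl8 at 0.16 and Rps6 at 0.09.

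Most relatives of the target were close between the siRNAs, and none passed. Of 16 p160 coactivators and partners 8 were higher and 8 lower with siRNA 2, 2 and 4 without overlap. Their median of 0.01 changed sign in 4 alternatives. The widest difference of the list was that of Kat2b (0.35, standard error 0.225), with overlap. The other p160 genes Ncoa1 and Ncoa2 differed by -0.01 (95% interval -0.20 to 0.17) and -0.10 (-0.29 to 0.09). The members of smallest p were dim, among them Ppargc1a (-0.17), Ciita (-0.18) and Ppargc1b (-0.16), all under the median gene level. The stress lists held no member called, with or without the block, under limma's default options. Of 26 p53 targets and apoptosis genes 8 were higher and 18 lower, with Trp53inp1 at 0.39, the pro-apoptotic gene Bcl2l11 at -0.32 and the survival gene Mcl1 at 0.21, and a median of -0.05. Of 27 genes of ATF4 and the unfolded protein response 18 were higher and 9 lower, 9 and 7 without overlap (33.3% and 25.9%, beside 15.2% and 20% of all genes). The members of smallest p were all higher: the chaperone gene Hsp90b1 at 0.16, Sdf2l1 at 0.16 and Herpud1 at 0.17. Chac1 (-0.13), Slc7a11 (-0.11) and Asns (-0.08) were among those lower without overlap. The list's median of 0.02 turned negative after quantile normalization and after cyclic loess. Of 19 genes of heat shock and oxidative stress 11 were higher and 8 lower, with a median of 0.02. Srxn1 had the smallest p of this list (-0.39, standard error 0.0761, limma adjusted p = 0.411). Gclm, a subunit of the enzyme that starts glutathione synthesis, was at 0.23 and the chaperonin gene Hspe1 at 0.21, and they were at 0.14 and 0.09 without siRNA 1 replicate 2. Over the 26 lists, which hold 643 distinct measured genes, limma without the block called 0 members.

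**Figure D5:**
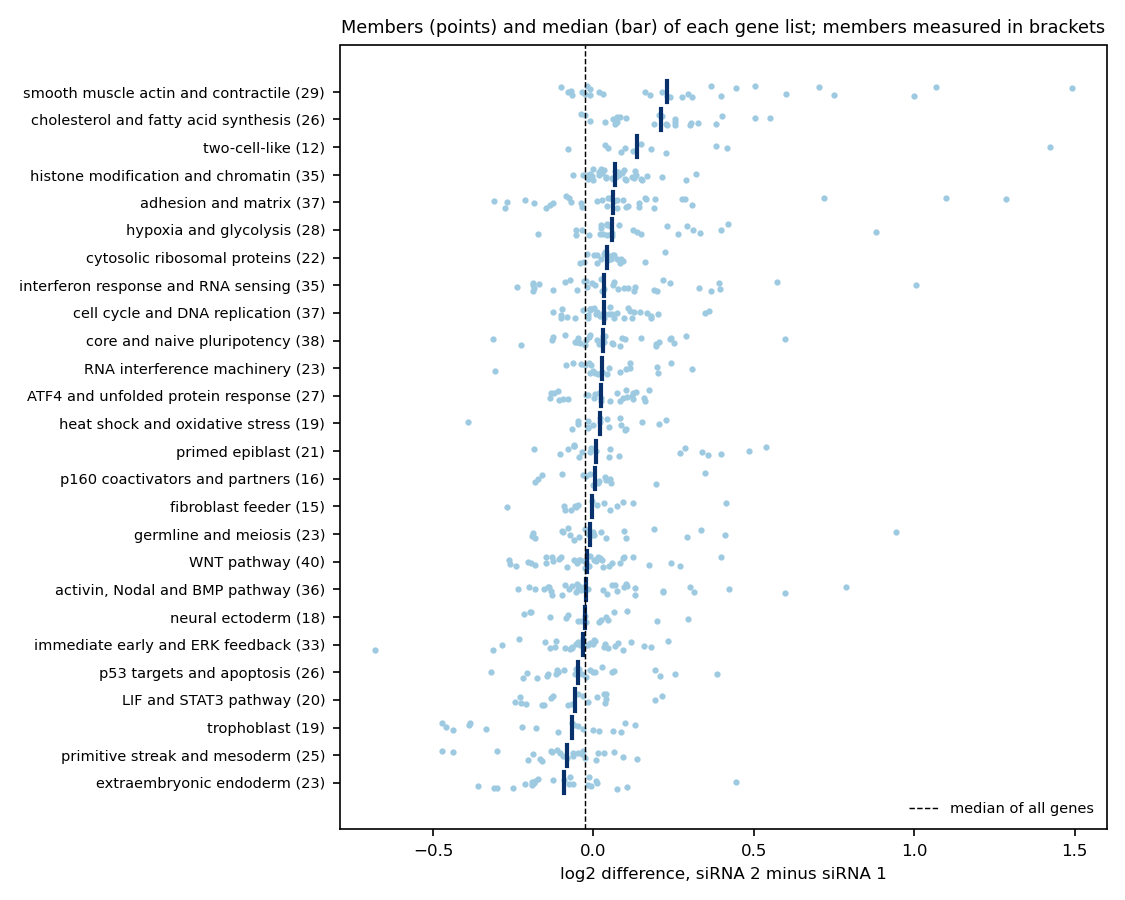
Log2 difference, siRNA 2 minus siRNA 1, of every measured member of the 26 gene lists (points) with each list's median (bar) and the median of all genes (dashed line); the number of measured members is in brackets. Medians run from -0.09 for extraembryonic endoderm to 0.23 for contractile genes, and the points furthest to the right are Acta2, Gm5662 and Krt19.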

How the data were processed

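RNA from 6 samples of E14 cells was measured on 1-colour expression arrays, 2 for each of 3 groups taken from the titles. The deposited values are log2 values, 1 for each of 35556 rows per array; that they are to base 2 is read from their span, 2.69 to 14.6, as the base is not given in the sources used here. The submitters' processing notes name Partek. Its version, and how the authors corrected background and normalized, is not given in the sources used here, and these steps set how far dim genes are compressed. Without detection calls, the number of arrays limits the precision. GEO's platform annotation gave 1 symbol for 21789 rows, several for 1621 rows, which were left out, and did not list 12146. The brightest row stood for each of 999 genes with more than 1, leaving 19938 genes, of which 19919 match RefSeq symbols.

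The 6 arrays were fitted by group with limma 3.58.1 (R 4.3.3), using lmFit and eBayes with neither trend nor robust options. The contrast was siRNA 2 minus siRNA 1, tested two-sided with Benjamini-Hochberg adjustment over the 19938 genes at 0.05, on 3 residual and 3.84 prior degrees of freedom. The error beside a difference is its standard error. The script was tested on simulated data. To see whether replicate numbers pair the arrays, each array's deviations from its group mean were correlated over genes with those of the equally numbered array: r was 0.464 for control with siRNA 1, 0.407 for control with siRNA 2 and 0.461 for siRNA 1 with siRNA 2. All exceed 0.1, so equal numbers were treated as pairs in the fit with the block, which is a weak check at 2 arrays per group. The main fit, with the standard errors and intervals given, does not use the pairs. The fit with the block had 2 residual and 3.89 prior degrees of freedom. Named genes are Ncoa3, 6 pluripotency factors, the 12 genes of smallest p in each direction whose arrays do not overlap and whose brighter group mean exceeds 7.81, and from each list the 3 members of smallest p at most. Others illustrate a list or are marked as chosen after seeing values. Predicted and olfactory genes were passed over. The 26 lists had 734 entries, of which 683 were measured. The members and lists were chosen with earlier results of these data known. Alternatives were the block, other normalizations, filters, rows and moderation, and each array left out.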

Additional observations from a re-analysis of the deposited data

How the results depend on the processing

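Without the block, the counts of 0 higher and 0 lower genes became 14 and 1 with the replicate block, 1 higher (Myd88) with array medians aligned, and 22 higher and 1 lower with trend and robust moderation, 8 of them among the 15 called with the block; leaving out 1 array gave 0 to 1 higher and 0 to 1 lower, the 1 of each (Gm5662 and Olfr715b) without siRNA 1 replicate 1. With the block, the 14 higher and 1 lower became 0 and 0 for the 4 siRNA arrays alone or for all rows, 27 and 2 after quantile normalization, 46 higher with medians aligned, 47 and 4 after cyclic loess, 60 and 5 with dim genes left out, 414 and 106 with trend and robust moderation, and 0 and 1 without moderation, the 1 not among the 15. Leaving out 1 array with the block gave 0 to 241 higher and 0 to 253 lower. These fits with the block were chosen after seeing the data, and the cause of the changes was not tested.

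The Ncoa3 difference stayed uncalled, from -0.11 to 0.11 with 1 array left out. Differences that changed sign were small: Nanog was -0.00552 after quantile normalization, Esrrb was 0.00346 with medians aligned, and with 1 array left out Pou5f1 ran from -0.0329 to 0.0979, Sox2 from -0.0173 to 0.141, Nanog from -0.044 to 0.104, Klf4 from -0.178 to 0.0826, Esrrb from -0.104 to 0.0593, Foxa2 from -0.514 to 0.00954 and Rpl14 from -0.00015 to 0.444. Over the named genes other than Ncoa3 and the alternatives, 1527 values kept direction and side of the threshold, 31 came to pass it and 13 changed sign. With 2 arrays per group, and signal over background not analysed here, a difference of dim genes has no bound on how much it was compressed.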
